A study of Mus musculus with 9 samples.

Results

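*Mapk15*, which encodes the atypical MAP kinase ERK7, was examined beside 6 other MAP kinases (*Mapk3*, *Mapk6*, *Mapk7*, *Mapk8*, *Mapk9* and *Mapk14*) in the liver of mice on an antisense oligonucleotide (ASO) against apoC-III. The members were found by gene symbol, 7 of the 51912 genes in the deposited table of TPM, a length-corrected measure of each gene's share of a library. *Mapk15* was chosen because it had stood among the largest increases in earlier results from these same livers, so its difference between groups is described here without a test. Livers came from 9 fasted mice, 5 on apoC-III ASO and 4 on control ASO, each injected intraperitoneally with 50 mg/kg/week for 8 weeks. All 9 mice shared the genotype *Apoe*-/- *Ndst1* f/f *Alb-Cre*+ on a C57Bl/6 background, which lacks apoE throughout the body and the heparan sulfate enzyme NDST1 in hepatocytes, where the albumin promoter drives Cre. Neither group therefore represents a liver with normal lipoprotein clearance. The age and the diet of the sequenced mice are not given beside the RNA sequencing in the sources used here, and the study fed some mice chow and others a Western diet.

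MAP kinases are the last step of kinase relays that run from the cell surface to the nucleus. A MAP3 kinase activates a MAP2 kinase, which phosphorylates a threonine and a tyrosine in the activation loop of the MAP kinase, and phosphatases of the DUSP family remove these phosphates. The ERK, JNK and p38 branches respond mainly to growth factors (ERK) and to stress and cytokines (JNK and p38). ERK7 is called atypical because no MAP2 kinase is known to activate it and it phosphorylates its own activation loop. It is known for roles in ciliogenesis and autophagy, where it binds proteins of the ATG8 family. Transcript levels do not measure kinase activity, and no phosphorylation was measured in these livers.

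The coding sequence around the activation loop shows how the members are related and is printed for that reason. Each line gives 39 bases of a GENCODE M21 transcript (GRCm38), 5′ to 3′ on the coding strand, with the 3 codons of the activation motif in capitals.
Mapk15: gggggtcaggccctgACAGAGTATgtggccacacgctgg
Mapk3: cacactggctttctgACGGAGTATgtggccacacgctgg
Mapk7: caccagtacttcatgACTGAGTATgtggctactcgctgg
Mapk8: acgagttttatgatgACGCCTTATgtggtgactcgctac
Mapk9: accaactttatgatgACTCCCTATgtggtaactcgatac
Mapk14: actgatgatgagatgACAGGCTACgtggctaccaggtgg
Mapk6: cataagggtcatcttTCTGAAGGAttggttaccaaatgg

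The capitals of *Mapk15*, *Mapk3* (ERK1) and *Mapk7* (ERK5) encode threonine, glutamate and tyrosine. The middle residue is proline in *Mapk8* (JNK1) and *Mapk9* (JNK2) and glycine in *Mapk14* (p38α). *Mapk6* (ERK3), another atypical member, has a serine in place of the threonine and no tyrosine. The *Mapk15* stretch lies at chr15:75996131-75996169 in exon 6 of 14, on the plus strand. Those of the other members lie at chr7:126763443-126763481 (*Mapk3*, plus strand), chr11:61491407-61491445 (*Mapk7*, minus strand), chr14:33392988-33393026 (*Mapk8*, minus strand), chr11:49872815-49872853 (*Mapk9*, plus strand) and chr17:28728384-28728422 (*Mapk14*, plus strand). The *Mapk6* stretch crosses an intron between exons 2 and 3, at chr9:75395622-75397584 on the minus strand.

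No member shared a run of 31 bases, the default word length of the quantifier named by the submitters, with another of the 7 genes. In *Mapk15*, *Mapk9* and *Mapk14* 100% of these words occurred in no other annotated gene. The share was 98.8% in *Mapk7* and in *Mapk8*, 97.0% in *Mapk3* and 94.7% in *Mapk6*. The *Mapk6* words found elsewhere were mostly in the pseudogene *Gm49037* (354 words), between which and *Mapk6* reads could be divided. *Mapk7* overlaps *Mfap4* on the opposite strand (59 words), and whether the quantification used the strand is not given in the sources used here.

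Values below are rescaled TPM unless TPM as deposited is named. Most deposited TPM belonged to a few noncoding RNAs, with nuclear protein-coding genes at 1.94% to 8.64% of the total. TPM of these genes was therefore rescaled to 1000000 per liver and divided by median-of-ratios factors, which align the livers on their typical gene. The factors lay between 0.930 and 1.44 except in control ASO replicate 4, where the factor was 0.496. That liver also had the smallest protein-coding share, 1.94%. How deeply each library was sequenced is unknown, because TPM holds no read counts, and no counting interval is given. The target of the ASO, *Apoc3*, averaged 451 ± 112 (SD, n = 5) under apoC-III ASO and 3579 ± 493 (SD, n = 4) under control ASO, a decrease of 87.4% (p = 0.0159 in an exact permutation test, two-sided, which is as small as 5 livers against 4 allow).

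*Mapk15* was higher in apoC-III ASO livers, most of all in 3 of the 5. In TPM as deposited it was at 9.37, 6.14, 6.10, 2.06 and 0.775 in apoC-III ASO replicates 1 to 5 and at 2.08, 1.60, 1.06 and 0.0759 in control ASO replicates 1 to 4. On that scale replicates 1 to 3 of the apoC-III ASO group lay above every control, whereas replicates 4 and 5 lay within the range of the controls. After rescaling, apoC-III ASO replicates 1 to 5 had 130.4, 93.1, 129, 39.9 and 26.9, and control ASO replicates 1 to 4 had 25.8, 25.4, 20.1 and 7.87. The groups then did not overlap, but the lowest apoC-III ASO liver and the highest control differed by little, 26.9 against 25.8. Among all 11954 genes tested, 0.92% had every apoC-III ASO liver above every control. *Mapk15* was chosen for its difference between these groups, so nothing is read from that share.

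The group means of *Mapk15* were 83.9 ± 48.7 (SD, n = 5) and 19.8 ± 8.37 (SD, n = 4), a ratio of 4.24. On the log2(value + 1) scale the difference of means was 1.90, beside a median of -0.0012 over all genes tested, and 7 of the 11954 genes (0.0586%), *Mapk15* included, had an increase as large or larger. That place near the top restates the choice of *Mapk15*, made on these livers, and nothing is read from it. The pooled SD within groups was 0.92 on the same scale. Without control ASO replicate 4 the difference was 1.54 and the ratio 3.54. Without the median-of-ratios factors the groups overlapped, with 25.5 in the lowest apoC-III ASO liver and 29.5 in the highest control.

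**Figure D1:**
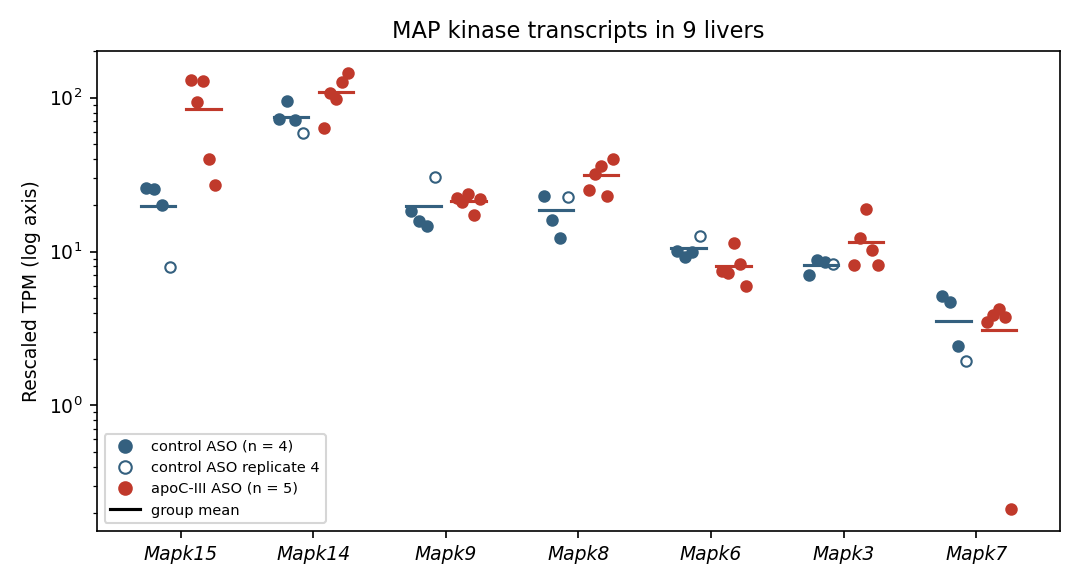
Rescaled TPM on a log axis for the 7 MAP kinases, with 1 point per liver, a line at each group mean and an open point for control ASO replicate 4. *Mapk15* lay between 26.9 and 130.4 in the 5 livers on apoC-III ASO (red) and between 7.87 and 25.8 in the 4 control ASO livers (blue), while the groups of most other members overlapped.

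Of the 6 other members, 4 had a higher and 2 a lower mean on the log2 scale in apoC-III ASO livers, where 49.8% of all genes tested were higher, and 0 were called by limma-trend (adjusted p under 0.05 and over 1.5-fold). Of all 11954 genes tested, 0.0167% were called in either direction. Only *Mapk8* had an unadjusted p under 0.05, as had 5.56% of all genes tested (2.99% higher and 2.58% lower). It was also the single one of the 6 over 1.5-fold higher, as were 5.91% of all genes. The adjusted p of the 6 ran from 0.864 to 0.974 (limma-trend with Benjamini-Hochberg adjustment over all genes). All 7 members passed the filter, a mean of at least 1.

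*Mapk8* encodes JNK1, the JNK form most studied in hepatic insulin resistance and fatty liver. It was at 25.1, 31.8, 36.1, 23.02 and 40.2 in apoC-III ASO replicates 1 to 5 and at 22.99, 16.1, 12.3 and 22.7 in control ASO replicates 1 to 4. Every apoC-III ASO liver lay above every control, as in 0.92% of all genes tested, but apoC-III ASO replicate 4 and control ASO replicate 1 were nearly equal. The groups overlapped in TPM as deposited and when apoC-III ASO replicate 2 or 3 or control ASO replicate 2 was left out. Its log2 difference was 0.74 (SE 0.25, 95% interval 0.18 to 1.29, adjusted p = 0.864 from limma-trend).

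*Mapk14* encodes p38α, a stress-responsive kinase that acts on gluconeogenesis in the fasted liver. ApoC-III ASO replicates 1 to 5 had 63.8, 107, 98.4, 127 and 145.6, and control ASO replicates 1 to 4 had 73.0, 94.9, 71.6 and 58.5. The groups overlapped, and replicate 1, the apoC-III ASO liver with the highest *Mapk15*, had the lowest *Mapk14* of its group. The log2 difference of *Mapk14* was 0.503 (SE 0.26, 95% interval -0.065 to 1.07, adjusted p = 0.887 from limma-trend).

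*Mapk3*, which encodes ERK1 of the growth factor branch, ranged from 8.16 to 18.9 under apoC-III ASO and from 7.03 to 8.78 in controls. Its log2 difference was 0.39 (95% interval -0.17 to 0.96). *Mapk9*, which encodes JNK2, ranged from 17.4 to 23.7 and from 14.6 to 30.3, with a log2 difference of 0.15 (95% interval -0.37 to 0.67). Neither passed limma-trend.

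The members with a lower mean were *Mapk6* and *Mapk7*. *Mapk6*, which encodes the short-lived kinase ERK3, ranged from 5.99 to 11.3 under apoC-III ASO and from 9.15 to 12.7 in controls, a log2 difference of -0.36 (95% interval -0.84 to 0.13). Its sign changed without the median-of-ratios factors (0.077), a scaling that moved the median of all genes by 0.41. *Mapk7*, which encodes ERK5, had 3.47, 3.86, 4.26, 3.74 and 0.212 in apoC-III ASO replicates 1 to 5 and 5.16, 4.67, 2.43 and 1.94 in control ASO replicates 1 to 4. Only replicate 5 of the apoC-III ASO group lay below the controls, and without it the log2 difference of -0.24 became 0.16. The sign of *Mapk7* also changed without the factors (0.094).

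None of these 6 intervals reached 1.90, the log2 difference of *Mapk15*, and the highest upper bound was 1.29 for *Mapk8*. That difference is itself uncertain (SE 0.51, against 0.25 for *Mapk8*) and comes from a gene chosen for its increase. The comparison therefore does not show that the change was particular to *Mapk15*. The upper bounds correspond to ratios of 2.45 for *Mapk8*, 2.10 for *Mapk14*, 1.94 for *Mapk3*, 1.65 for *Mapk7*, 1.59 for *Mapk9* and 1.10 for *Mapk6*. Smaller changes of each remain possible at this number of livers. Whether the change differed between *Mapk15* and the others was not tested, because *Mapk15* had been picked for its change on these livers.

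**Figure D2:**
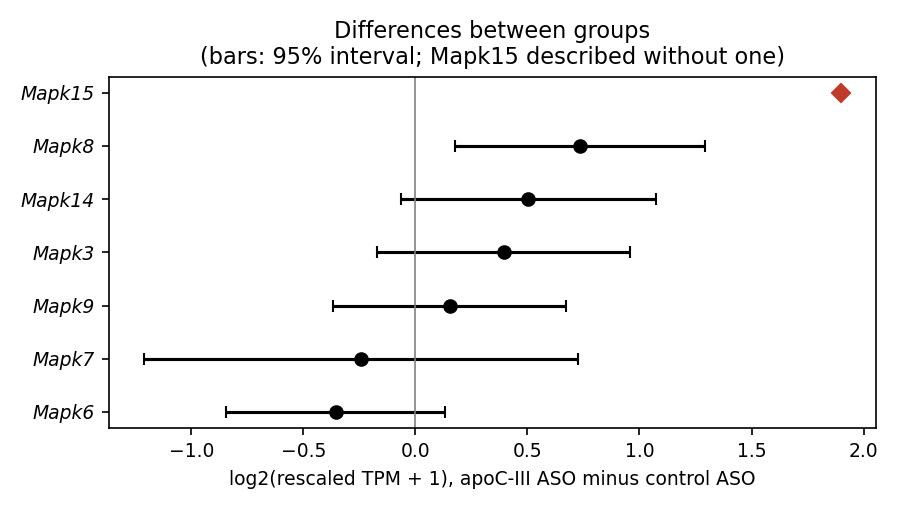
Difference of the mean log2(rescaled TPM + 1), apoC-III ASO minus control ASO, for each member, with bars for the 95% interval from limma-trend. *Mapk15* (diamond, no interval) was at 1.90, and the 6 others lay between -0.36 (*Mapk6*) and 0.74 (*Mapk8*).

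The share of *Mapk15* in the summed TPM of the 7 genes does not depend on scaling between livers. It was 50.02%, 33.7%, 40.1%, 17.4% and 10.8% in apoC-III ASO replicates 1 to 5 and 15.9%, 14.5%, 14.4% and 5.53% in control ASO replicates 1 to 4. By this measure the groups overlapped, since apoC-III ASO replicate 5 lay below 3 of the 4 controls and replicate 4 was just above the highest. The means were 30.4% ± 16.2 (SD, n = 5) and 12.6% ± 4.76 (SD, n = 4). The difference of 17.8 percentage points was between 12.9 and 22.7 with each liver left out in turn. With all 14 MAP kinase genes of the table as denominator it was 16.2 percentage points. The shares of *Mapk6* (2.41% to 3.64% against 5.23% to 8.92%) and *Mapk9* (7.37% to 8.82% against 9.04% to 21.3%) were lower in every apoC-III ASO liver than in every control. Those of *Mapk3*, *Mapk7*, *Mapk8* and *Mapk14* overlapped. Within a liver a larger share of *Mapk15* lowers the shares of the others, and these separations were not tested.

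The ratio of *Mapk15* to *Mapk14* showed the same livers apart. It was 2.04, 0.869 and 1.31 in apoC-III ASO replicates 1 to 3, 0.314 and 0.185 in replicates 4 and 5, and 0.134 to 0.354 in control ASO livers. The 6 other members together had a sum of 130.3 to 222 under apoC-III ASO and of 119 to 149 under control ASO, which overlapped. The lowest of these sums in the apoC-III ASO group belonged to replicate 1, the liver with the highest *Mapk15*.

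**Figure D3:**
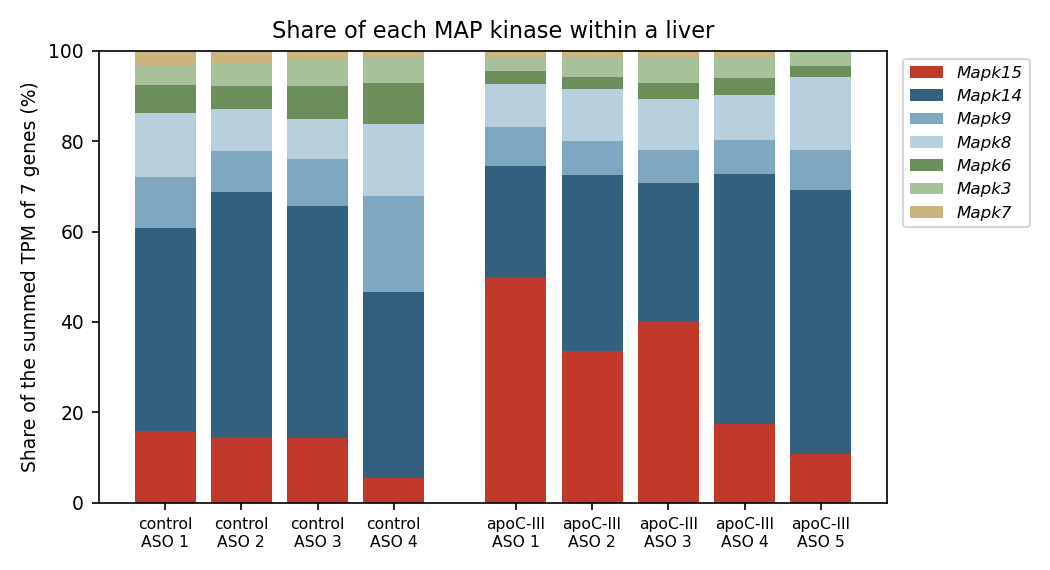
Stacked bars give each gene's percentage of the summed TPM of the 7 MAP kinases in each of the 9 livers. The *Mapk15* share (red) was 33.7% to 50.02% in apoC-III ASO replicates 1 to 3, 10.8% to 17.4% in replicates 4 and 5 and 5.53% to 15.9% in the controls.

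Ordered by the mean level over all 9 livers, per transcript length, the members ran *Mapk14* (93.3), *Mapk15* (55.4), *Mapk8* (25.6), *Mapk9* (20.6), *Mapk3* (10.03), *Mapk6* (9.13) and *Mapk7* (3.31). Of the 4 pairs of neighbors without *Mapk15*, 2 kept their order in 9 of 9 livers, *Mapk9* above *Mapk3* and *Mapk6* above *Mapk7*. Each had p = 0.0039 in an exact two-sided sign-flip permutation test, the smallest possible. Benjamini-Hochberg adjustment over all 6 pairs in the order gave 0.0117. That p follows whenever all 9 livers agree, whatever their spread. The order was taken from the same 9 livers with both groups pooled, so the test only describes them. The same exact permutation test gave an adjusted p of 0.145 for *Mapk8* over *Mapk9* and of 0.531 for *Mapk3* over *Mapk6*. The order of *Mapk3* and *Mapk6* differed between groups, with *Mapk3* above *Mapk6* in 0 of 4 controls (means 8.16 and 10.5) and in 5 of 5 livers on apoC-III ASO (means 11.5 and 8.07), a difference that was not tested. As a description, *Mapk14* was above *Mapk15* in 7 of 9 livers, the exceptions being apoC-III ASO replicates 1 and 3. In control ASO livers alone *Mapk15* (19.8), *Mapk9* (19.8) and *Mapk8* (18.5) had nearly equal means. In apoC-III ASO livers *Mapk15* (83.9) was nearer to *Mapk14* (108).

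Among the other MAP kinase genes in the table, *Nlk*, which encodes a kinase of Wnt signaling, had a log2 difference of 0.75 (adjusted p = 0.900 from limma-trend), *Mapk12* (p38γ) of 0.25 and *Mapk11* (p38β) of 0.072. These 3 had overlapping groups, and limma-trend gave none a call or an unadjusted p under 0.05. The shares over all genes tested were 0.0167% and 5.56%. *Mapk4*, *Mapk10* and *Mapk13* had means under 1, and *Mapk10* was listed at 0 in 4 livers.

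The genes upstream of the MAP kinases showed no call in limma-trend. Over all genes tested, 0.0167% were called and 5.56% had an unadjusted p under 0.05. Of 7 MAP2 kinases, 4 were higher and 3 lower, with a median log2 difference of 0.02 and 0 at an unadjusted p under 0.05. The smallest p belonged to *Map2k7*, an activator of JNK (0.35), *Map2k2*, an activator of ERK (-0.31), and *Map2k6*, an activator of p38 (-0.60). Of 21 MAP3 and RAF kinases tested, 15 were higher and 6 lower, with a median of 0.096 and 0 at an unadjusted p under 0.05, led by *Taok2* (0.36), *Araf* (0.36) and *Map3k20* (0.35). Of 10 RAS inputs, 6 were higher and 4 lower, and 1 had an unadjusted p under 0.05. This was *Nras*, at 36.2 to 72.5 against 19.7 to 46.0, with a log2 difference of 0.78 (adjusted p = 0.864 from limma-trend). *Sos2*, an exchange factor for RAS, had 0.39.

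Of 7 MAP kinase phosphatases tested, 4 were higher and 3 lower, with a median log2 difference of 0.21. Limma-trend called 0 and gave 2 an unadjusted p under 0.05, beside 0.0167% and 5.56% of all genes tested. *Dusp16*, a phosphatase of JNK and p38, was at 39.4, 20.9, 37.5, 35.6 and 20.4 in apoC-III ASO replicates 1 to 5 and at 16.0, 18.5, 16.7 and 16.9 in control ASO replicates 1 to 4. All its apoC-III ASO livers lay above all controls, as did those of 0.92% of all genes tested. Its log2 difference was 0.76 (SE 0.25, adjusted p = 0.864 from limma-trend). *Dusp1*, an immediate early phosphatase of all 3 branches, was at 32.5 to 49.3 in 4 apoC-III ASO livers, at 10.8 in replicate 3 and at 10.5 to 20.3 in controls, a log2 difference of 1.23 (adjusted p = 0.864 from limma-trend). *Dusp10* had a log2 difference of -0.43.

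Downstream, 10 MAP kinase-activated kinases were tested, 7 higher and 3 lower, with a median of 0.105 and 0 calls in limma-trend. Here too 0.0167% of all genes tested were called and 5.56% had an unadjusted p under 0.05. *Rps6ka5* (MSK1, which phosphorylates histone H3 and CREB) had an unadjusted p under 0.05, with a log2 difference of -0.95 and values of 0.996 to 4.64 against 2.64 to 15.4. *Mapkapk3* had 0.78 and *Rps6ka2* 0.33. Of 12 scaffolds and adaptors, 9 were higher, with a median of 0.15, and limma-trend gave 0 an unadjusted p under 0.05. *Gadd45a* had -1.01, *Gadd45g* 0.86 and *Mapk1ip1l* -0.41. Of 10 ERK feedback and target genes tested, 6 were higher, the median was 0.38, and 1 had an unadjusted p under 0.05. This was *Fos*, at 2.38 to 5.97 against 0.269 to 3.06, with a log2 difference of 1.10 (adjusted p = 0.864 from limma-trend). *Junb* had 0.54 and *Jun* 0.56.

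Genes of the processes in which ERK7 is known to act were counted as well, and limma-trend called 0 of them. It called 0.0167% of all genes tested and gave 5.56% an unadjusted p under 0.05. Of 6 genes of the ATG8 family and the autophagy receptor *Sqstm1*, 4 were higher, and *Sqstm1* alone had an unadjusted p under 0.05, with 222 to 316 against 144 to 225 and a log2 difference of 0.48. *Gabarap* had -0.28 and *Gabarapl1* 0.26. Of 19 primary cilium genes tested, 10 were higher and 9 lower, with a median of 0.059. Only *Ift80* had an unadjusted p under 0.05, with a log2 difference of 1.19, and one liver, apoC-III ASO replicate 5, had 74.1 against 11.7 to 27.0 in the other apoC-III ASO livers. *Ift172* had 0.37 and *Ttbk2* 0.42. Of 15 motile cilium genes, 13 were in the table under the symbols used and 2 passed the filter, *Tekt2* and *Ccdc40*. *Tekt2* averaged 2.61 under apoC-III ASO and 0.983 in controls, and *Ccdc40* 0.548 and 1.60. Each thus passed only through the group where it was higher, and nothing is read from their log2 differences (1.02 and -0.67). *Foxj1*, the master regulator of motile ciliated cells, was at 0 to 0.332 in all livers.

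**Figure D4:**
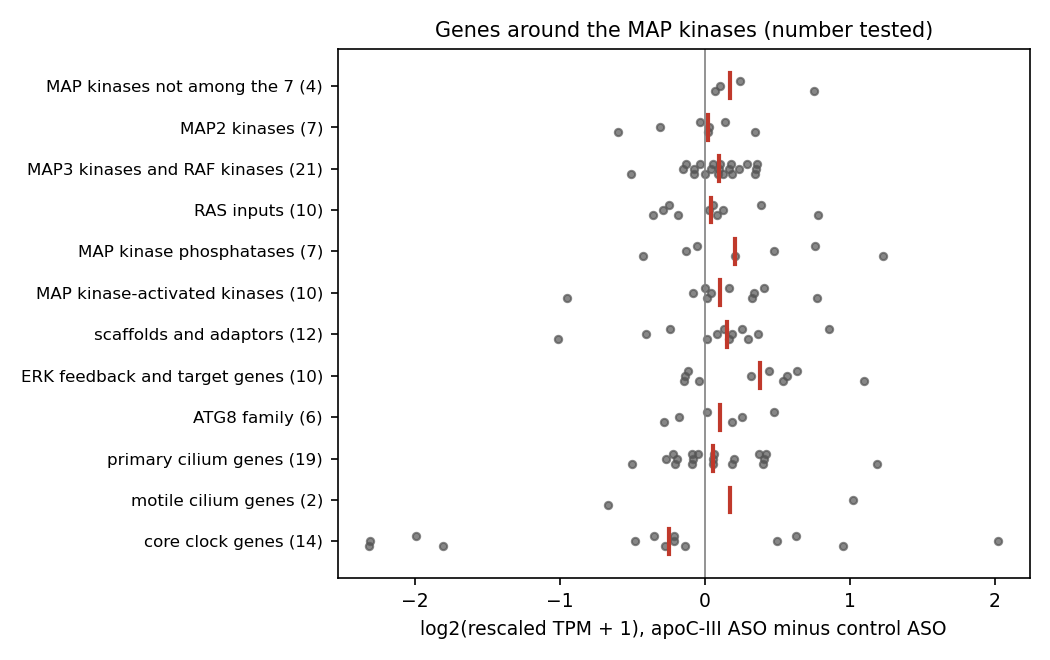
Each point is a gene's difference in mean log2(rescaled TPM + 1), apoC-III ASO minus control ASO, with a red line at the median of the list and the number of genes tested in parentheses. List medians lay between -0.24 (core clock genes) and 0.38 (ERK feedback and target genes). Calls numbered 0 in these lists, beside 0.0167% of all genes tested.

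*Arntl*, *Npas2*, *Dbp* and *Per2* of the core clock list had their extreme values in the livers in which *Mapk15* was highest. Other genes of the list are given only as log2 differences between groups, which do not show the order of livers. These were small for *Cry1* (-0.21), *Cry2* (-0.13), *Tef* (-0.21), *Nr1d2* (-0.27) and *Hlf* (-0.35). They were larger for *Per1* (-0.48), *Nr1d1* (0.50), *Clock* (0.63) and *Ciart* (-2.31). *Arntl*, which encodes the clock activator BMAL1, was at 17.7, 11.1 and 30.9 in replicates 1 to 3 of the apoC-III ASO group, at 0.740 and 2.75 in replicates 4 and 5 and at 0.320 to 2.46 in controls. *Npas2*, a partner of BMAL1, was at 0.513 to 4.52 in apoC-III ASO replicates 1 to 3 and at 0 to 0.143 in the other 6 livers. *Dbp*, an output gene of the opposite phase, was at 2.92, 22.2 and 2.70 in replicates 1 to 3 of the apoC-III ASO group, at 152 and 97.7 in replicates 4 and 5 and at 68.2 to 103 in controls. *Per2*, a clock repressor, was at 3.35 to 8.31 in replicates 1 to 3 of the apoC-III ASO group, at 25.1 and 40.5 in replicates 4 and 5, and at 12.1 in control ASO replicate 4 and 83.7 to 129.7 in the other controls. The 3 livers with the highest *Mapk15* were thus the 3 with the highest *Arntl* and the lowest *Dbp* and *Per2*. The time at which each liver was taken is not given in the labels, and the part of clock phase in the *Mapk15* values was not tested.

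Over the list, 14 of the 15 core clock genes were tested, 4 higher and 10 lower, and 0 were called in limma-trend. Calls made up 0.0167% of all genes tested, and 5.56% had an unadjusted p under 0.05. An unadjusted p under 0.05 was found for *Arntl* (log2 difference 2.03) and *Nfil3* (0.96) among the higher and for *Per2* (-2.31) and *Per3* (-1.80) among the lower. Each had overlapping groups, and their lowest adjusted p from limma-trend was 0.864. *Npas2*, *Dbp*, *Per3* and the clock genes given only as log2 differences above are named outside the rule for genes, after their values were seen.

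**Figure D5:**
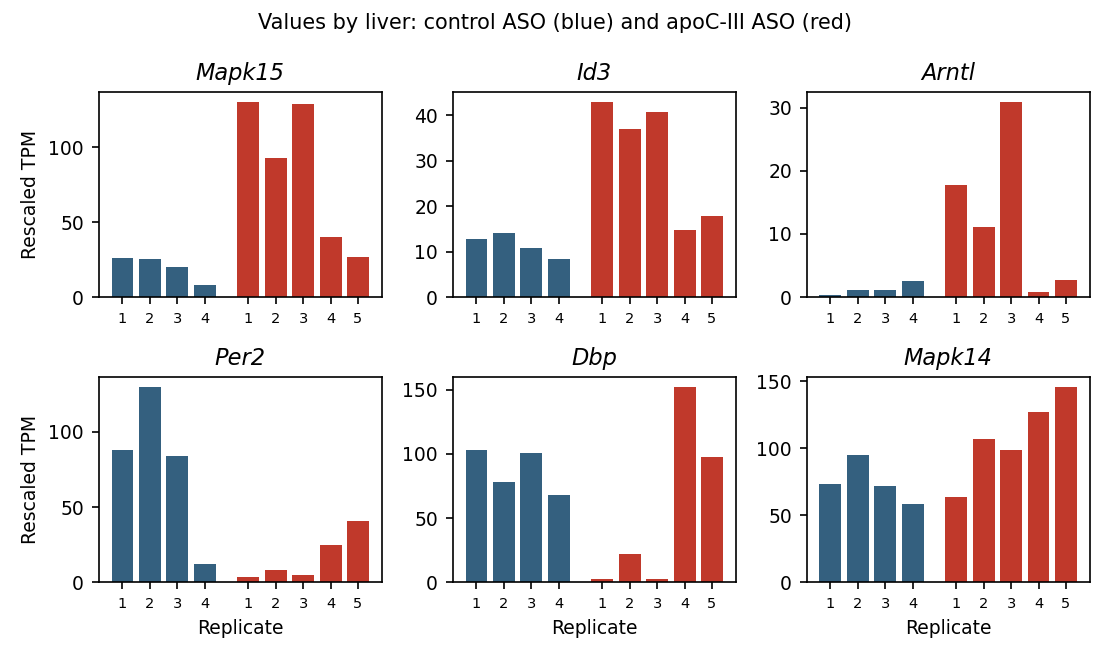
Rescaled TPM of 6 genes, with 1 bar per liver, control ASO in blue and apoC-III ASO in red. *Mapk15*, *Id3* and *Arntl* were highest in apoC-III ASO replicates 1 to 3, where *Per2* and *Dbp* were lowest, and *Mapk14* did not follow that order.

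The genes with the pattern most like that of *Mapk15* over the 9 livers were *Id3* (Pearson r = 0.969 on the log2 scale), *Mocos* (0.968), *Stat2* (0.960), *Tapt1* (0.946) and *Akr1e1* (0.939). These correlations describe 9 livers and share the scaling of each library. *Mapk15* was highest in apoC-III ASO replicates 1 to 3. Control ASO replicate 4, with the smallest scaling factor, had the lowest *Mapk15* (7.87) and the lowest value of each of these genes. The weight of single livers in the correlations was not tested. *Id3*, an inhibitor of basic helix-loop-helix factors, was at 43.0, 36.9, 40.6, 14.7 and 17.7 in apoC-III ASO replicates 1 to 5 and at 8.29 to 14.1 in controls. *Stat2*, a factor of interferon signaling, was at 142 to 154 in apoC-III ASO replicates 1 to 3 and at 67.4 to 115 in the other livers. *Akr1e1*, an aldo-keto reductase, was at 21.01 to 31.6 in apoC-III ASO replicates 1 to 3 and at 2.38 to 10.4 in the others. The most opposite patterns were those of *Cd24a* (r = -0.989), *Bet1l* (-0.977) and *Fhad1* (-0.973). *Cd24a*, which encodes a surface glycoprotein of biliary and immature cells, was listed at 0 in apoC-III ASO replicates 1 to 3 and was at 1.12 to 4.02 in the other livers. Its mean of 1.24 was near the filter, which it passed only through the controls (2.13 against 0.526), so nothing is read from its correlation.

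Each of the nearest protein-coding genes beside *Mapk15* on chromosome 15 had overlapping groups. *Mapk15* spans 75993769 to 75999154 on the plus strand and overlaps none of these neighbors. Noncoding genes were not examined for overlap. Upstream, *Zfp707* was at 17.01 to 47.9 under apoC-III ASO and 15.9 to 33.8 in controls (log2 difference 0.17, 95% interval -0.54 to 0.88), and *Ccdc166* had a mean under 1. Downstream, *Fam83h* had a log2 difference of -0.053 (95% interval -0.63 to 0.52). *K230010J24Rik* had -1.02 (95% interval -2.24 to 0.20), with 10.6 in control ASO replicate 4 and at most 3.75 elsewhere. It overlaps *Fam83h* on the opposite strand.

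The livers carried hepatocyte transcripts at high level, with the 10 hepatocyte markers summing to 27682 to 58006 under apoC-III ASO and 37878 to 54436 in controls. Of these, 9 were lower in apoC-III ASO livers, and limma-trend gave 0 a call or an unadjusted p under 0.05. Those shares were 0.0167% and 5.56% over all genes tested. The smallest p belonged to *Serpina1a* (-0.50), *Cyp2e1* (-0.61) and *Apoa1* (-0.34). Sums of the 8 cholangiocyte markers were 56.0 to 113 and 67.1 to 139, those of the 6 Kupffer cell markers 61.6 to 94.4 and 58.8 to 107.7, and those of the 6 endothelial cell markers 120.4 to 167 and 95.5 to 150.4. Of the markers tested, 2 were higher and 3 lower for cholangiocytes, 2 and 3 for Kupffer cells and 4 and 2 for endothelial cells. None of these 3 lists had a gene at an unadjusted p under 0.05, and no marker of these cell types was at 0 in every liver. Their leading genes were *Sox9* (0.47), *Krt19* (-0.36) and *Spp1* (-0.13) for cholangiocytes, *Marco* (0.67), *Cd5l* (0.14) and *Clec4f* (-0.18) for Kupffer cells, and *Lyve1* (0.52), *Clec4g* (0.497) and *Fcgr2b* (0.23) for endothelial cells. The 6 stellate cell markers, 1 higher and 5 lower, summed to 41.4 to 56.9 against 49.2 to 66.8. Among them *Lrat*, which stores retinol as esters, was below every control in every apoC-III ASO liver, with 0.977 to 1.63 against 2.30 to 5.29 (log2 difference -0.89, adjusted p = 0.848 from limma-trend), as were 0.912% of all genes tested. *Rgs5* had -0.53 and *Colec11* -0.27. In whole liver, fewer cells of a type and less RNA per cell cannot be told apart, and the part of cell composition in the *Mapk15* values was not tested. *Apoe* was at 23.2 to 53.1 against 24.2 to 66.4 and *Ndst1* at 7.91 to 11.6 against 4.81 to 11.2, so transcripts were listed for both inactivated genes.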

How the data were processed

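RNA of 9 livers was depleted of ribosomal RNA and read from stranded single-end libraries. Values are gene-level TPM as deposited by the authors, for which the submitters' processing notes name kallisto 0.43.1 and GRCm38. For the published test the methods name STAR, featureCounts and DESeq2, whose counts were not used here. Identifiers were matched to GENCODE M21 (51633 of 51912, 99.5%). TPM of the 21780 nuclear protein-coding genes was brought to a sum of 1000000 in each liver, then divided by median-of-ratios factors. This scaling was chosen with earlier results of these data known, as were the members, the lists and the rule for named genes. Where 2 identifiers shared the symbol *Map2k7*, the more abundant was used.

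Differences were fitted with limma 3.58.1 in R 4.3.3 (lmFit, eBayes with trend) on log2(value + 1), without covariates, for the 11954 genes with a mean of at least 1. A call needed an adjusted p (Benjamini-Hochberg) under 0.05 and more than 1.5-fold. The fit was tested on simulated data. The rule named the MAP kinases, up to 3 genes of smallest p and any without overlap per list, the genes most and least correlated with *Mapk15*, its neighbors, *Apoc3*, *Apoe* and *Ndst1*. *Npas2*, *Dbp*, *Per3*, *Foxj1*, *Anpep* and some clock genes were added after seeing values. Some genes the rule named are not reported here. Alternatives changed the scaling, pseudocount, filter, variance model, thresholds or livers. Sequences were read with Biopython 1.88. Permutation tests used scipy 1.17.1 in Python 3.11.15.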

Additional observations from a re-analysis of the deposited data

Results flagged for a closer look

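A liver was singled out where its gap to the nearest of its group exceeded Dixon's 95% critical value, which chance gives in about 1 of 20 groups. Of 162 groups examined, 22 had such a liver, 11 of them with control ASO replicate 4 as that liver. In that replicate *Mapk15* took 5.53% of the 7 members (14.4% to 15.9% in the other controls), *Mapk11* was at 0.491 (1.11 to 1.20) and *Mapk12* at 1.06 (3.52 to 3.94). It also had *Dusp1* at 20.3, *Sqstm1* at 144, *Gabarap* at 79.5, *Cyp2e1* at 7016, *Cd24a* at 4.02, *Bet1l* at 52.0, *Fhad1* at 19.1 and *K230010J24Rik* at 10.6. This is the liver with the smallest protein-coding share and the smallest factor, and the part of scaling in these values was not tested.

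In apoC-III ASO replicate 5 *Mapk7* was at 0.212 (3.47 to 4.26 in the other apoC-III ASO livers), *Ift80* at 74.1 and *Krt19* at 4.35. In the other livers the values were *Fos* at 5.97 in apoC-III ASO replicate 1, *Ttbk2* at 9.12 in replicate 2, *Gadd45a* at 15.6 and *Sox9* at 4.54 in replicate 3, and *Mapk1ip1l* at 13.95 and *Rgs5* at 3.94 in replicate 4. In control ASO replicate 3 *Map2k2* was at 35.7 and *Marco* at 9.60.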

How the results depend on the processing

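*Mapk15* was higher in apoC-III ASO livers under all 20 alternatives, by 1.22 to 2.34 on the log2 scale, and by 1.54 (without control ASO replicate 4) to 2.25 (without apoC-III ASO replicate 5) with 1 liver left out. Alternatives of the filter and of the eBayes step could not alter a difference of means and left it at 1.90. The signs of *Mapk3*, *Mapk8*, *Mapk9* and *Mapk14* held wherever these genes passed the filter, and none of the 6 other members was called. *Mapk6* reversed without the factors (0.077), and *Mapk7* without the factors (0.094), with a replicate block (0.16) and among the fits without 1 liver (-0.44 to 0.16). *Apoc3* missed the threshold in TPM as deposited (-2.62, adjusted p = 0.104 from limma-trend), where *Mapk3*, *Mapk6* and *Mapk7* had a mean under 1. The cause was not tested.

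Of all genes 2 were called, *Apoc3* and *Anpep*, both lower. The count was 11 (5 higher, 6 lower) in TPM as deposited, 1 without the factors, without the filter or without a trend, and 1 to 3 with 1 liver left out. *Anpep* was lost in every such omission but those of control ASO replicates 2 and 4. The share of *Mapk15* differed by 12.9 to 22.7 percentage points with 1 liver left out.

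The groups share only replicate numbers. Deviations of same-numbered livers correlated at 0.026 to 0.19, and 2 of the 4 controls correlated best with their own number. A replicate block, in which apoC-III ASO replicate 5 has no partner and so carries no weight, gave 3 calls, *Apoc3*, *C1s2* and *Mapk15*. That replicate had the lowest *Mapk15* of its group (26.9), and no other alternative called *Mapk15*. Because *Mapk15* was chosen on these livers, nothing is read from its call.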
